A study of Mus musculus with 16 samples.

Results

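Megakaryocyte progenitors are the cells of the early embryo that give rise to megakaryocytes and, from these, to platelets. In chimeric mouse embryos with *Stat3* null and wild-type (WT) cells, 183 of 37841 analysed single-cell transcriptomes carried this label, against 359 cells labelled EMP (erythro-myeloid progenitors) and 2194 labelled Erythroid. The cells were chosen by the cell type that the authors transferred from an atlas of mouse gastrulation and early organogenesis, among cells that passed the quality filter and were not called doublets. That label rests on the transcriptome of the same cells, so genes that set it apart from other labels are given as a description.

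A megakaryocyte enlarges without dividing, stores chemokines and clotting factors in granules, and carries on its surface the receptors that later let platelets adhere and aggregate. The GATA1, FLI1 and RUNX1 transcription factors drive these genes, and cytokines that signal through JAK kinases sustain the lineage. STAT3 is one of the transcription factors that JAK kinases phosphorylate. In the mouse the first megakaryocytes arise in the yolk sac beside primitive erythroid cells.

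The chimeras were made by injecting CD1 *Stat3* null embryonic stem cells (ESCs) into WT blastocysts of the same CD1 stock. The donor cells carried a nuclear tdTomato reporter in a ubiquitous expression construct, had part of both *Stat3* alleles replaced with a neomycin resistance cassette, and came from expanded single colonies. Host cells carried neither change and did not come from ESCs. Differences between null and WT cells therefore cannot be told apart from those of donor origin, culture, colony or reporter. Embryos of 3 stages (E7.5, E8.5 and E9.5, in days after fertilisation) were taken with no further treatment, dissociated and sorted into tdTomato-positive cells (null) and tdTomato-negative cells (WT), so both genotypes of a stage grew in the same embryos. WT-sorted cells with a tdTomato unique molecular identifier (UMI, 1 counted transcript) were left out. Embryos were pooled at E7.5 and E8.5 and processed singly at E9.5.

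Of the 16 libraries, E9.5 had 4 null and 4 WT, and each earlier stage had 2 of either genotype. They held 360 to 4327 cells and 20682659 to 138613245 UMIs each. A letter from A to D names a library within its group and pairs nothing. The 4 libraries of an E9.5 group exceed the number of embryos that the methods give for that stage, so p-values measure the spread between libraries, which may in part be technical. Levels are given as counts (UMIs) per 1000000 UMIs (CPM) of the megakaryocyte progenitors of a library, summed before scaling.

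Very few of these cells came from a pair of null libraries. E8.5 null B had 2 and E9.5 null C had 3, so their levels rest on 74711 and 86426 UMIs, while the other 10 libraries of these stages had 6 to 40 cells and 211937 to 1141353 UMIs. The cells themselves carried 10511 to 64111 UMIs. Of the 488 cell barcodes that occurred in more than 1 library, 7 belonged to a megakaryocyte progenitor, and none was shared by megakaryocyte progenitors of separate libraries.

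The label went with its markers, which is a description, since it was transferred from the transcriptomes of the same cells. *Pf4* encodes platelet factor 4, a granule chemokine, *Itga2b* the alpha chain of the fibrinogen receptor (CD41), and *Gp9* a subunit of the von Willebrand factor receptor. At least 2 of these 3 transcripts were present in 176 of 183 cells, and all 3 in 162. With cells thinned at random to 10000 UMIs, *Pf4* was found in 94.0% of the cells (95% exact binomial interval 89.5 to 97.0%) and in 2.40% of 500 Erythroid cells drawn as a background. *Itga2b* was found in 92.3% (87.5 to 95.8%) against 15%, and *Gp9* in 73.2% (66.2 to 79.5%) against 1.2%. The median depth was 30511 UMIs in megakaryocyte progenitors and 32589.5 in the Erythroid cells, and the unthinned shares were 96.2%, 98.9% and 89.6%, against 4.2%, 40% and 4.8% of the Erythroid cells. These intervals cover counting error only. All 3 transcripts were found in more of the labelled cells than of the Erythroid cells, among which *Itga2b* was not rare.

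Beside the neighbouring blood labels, with UMIs pooled over E8.5 and E9.5 and as a description only, the megakaryocyte genes stood out. *Pf4* was at 12687 CPM in megakaryocyte progenitors, 78.0 CPM in cells labelled MEP, 59.0 CPM in EMP and 1.45 CPM in Erythroid cells. *Gp9* was at 358 CPM, against 18.8, 10.3 and 1.80 CPM in the same 3 labels, and *Clec1b*, a platelet receptor of podoplanin, at 473 CPM against 19.9, 16.7 and 0.0784 CPM. *Gata1*, the transcription factor that erythroid cells share, was at 137 CPM, against 146 CPM in MEP, 9.81 CPM in EMP and 91.6 CPM in Erythroid cells. *Tyrobp*, an adaptor of myeloid receptors, was at 42.4 CPM against 480 CPM in EMP, but 223 of its 240 UMIs came from 7 cells with a single marker and the other 176 cells held 3.06 CPM, and *Kit*, a growth factor receptor of progenitors, at 9.72 CPM against 50.3 CPM in EMP. The labelled cells were thus high in platelet genes and lower than EMP in these myeloid and progenitor transcripts.

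**Figure D1:**
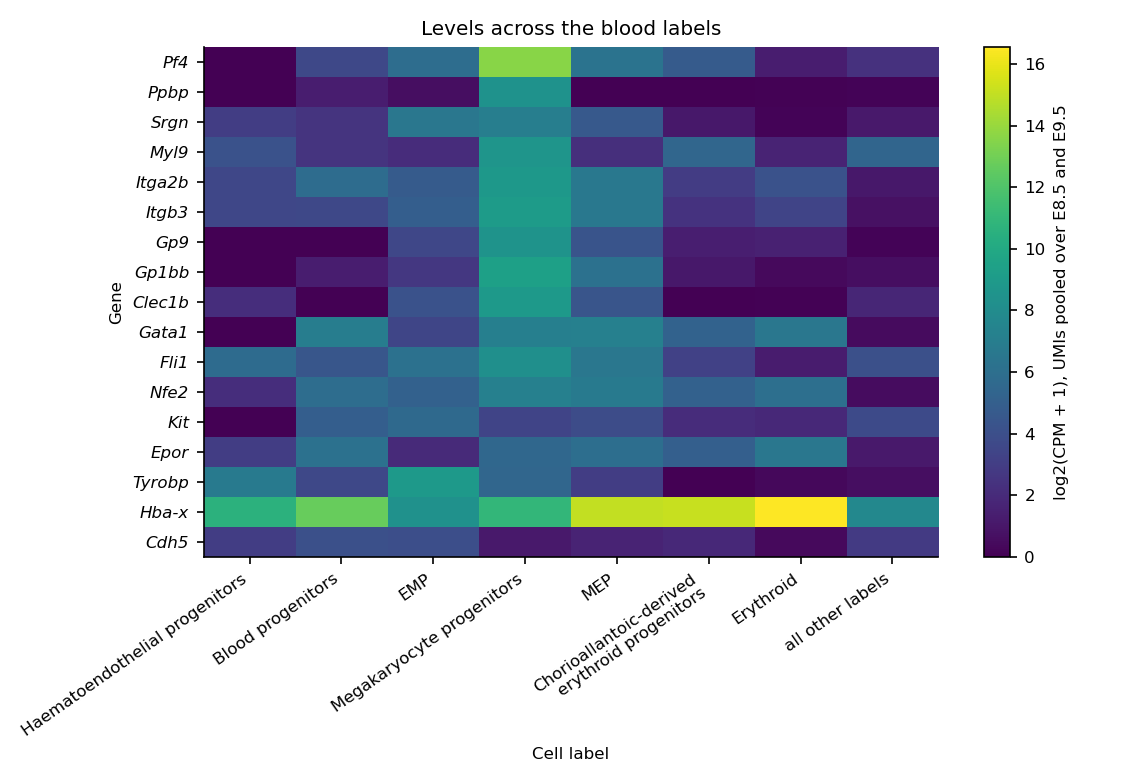
Level of 17 genes (rows) in 7 blood labels and in all other labels (columns), as log2(CPM + 1) of UMIs pooled over E8.5 and E9.5 libraries, from dark (0) to yellow. The column of megakaryocyte progenitors is brightest for *Pf4* (12687 CPM) and brighter than the other columns for *Ppbp*, *Gp9*, *Gp1bb* and *Clec1b*, while *Hba-x*, an embryonic globin, is brightest in Erythroid cells.

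The 7 cells with a single marker were not spread evenly. E9.5 null A held 3 of them among 16 cells, and its summed level of 19 myeloid markers (6 of them at 0 everywhere; *Fcer1g*, *Coro1a* and *Laptm5* set aside) was 605 CPM, against 0 to 261 CPM in the other 11 libraries and 2441 CPM in EMP. E9.5 WT B held 2 of them and reached 25851 CPM for the 8 globin genes, as did E9.5 WT C with 28338 CPM. The other 10 libraries had 268 to 8621 CPM of globin transcripts and Erythroid cells 206418 CPM. Transcripts of 15 yolk sac endoderm genes stayed at 0 to 21.6 CPM. Counts of called genes are given below also with single libraries left out or without the marker-poor cells. The counts within gene lists, myeloid genes included, are not.

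The regulatory sequence is shown for the 3 markers and for *Gp1bb*, another subunit of the von Willebrand factor receptor, taken from the surface receptors by mean CPM. Whether these stretches bear on the levels was not tested. Each line gives the 250 bases before the annotated start (RefSeq, GRCm38.p6), 5′ to 3′ on the strand of the gene. Capitals mark a match to an ETS core or a GATA core, searched on both strands. The ETS core was spelled AGGAAG, or with its first base changed, CGGAAG, and in *Pf4* the next base that extends it is in capitals too. The GATA core was spelled GATAA. A match on the opposite strand appears as the reverse complement.
Pf4 (chr5:90772185-90772434, + strand): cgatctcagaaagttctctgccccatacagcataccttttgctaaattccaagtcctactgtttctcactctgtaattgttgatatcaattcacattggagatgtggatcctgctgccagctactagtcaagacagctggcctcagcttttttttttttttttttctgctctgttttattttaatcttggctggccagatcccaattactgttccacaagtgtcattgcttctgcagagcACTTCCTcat
Itga2b (chr11:102469884-102470133, - strand): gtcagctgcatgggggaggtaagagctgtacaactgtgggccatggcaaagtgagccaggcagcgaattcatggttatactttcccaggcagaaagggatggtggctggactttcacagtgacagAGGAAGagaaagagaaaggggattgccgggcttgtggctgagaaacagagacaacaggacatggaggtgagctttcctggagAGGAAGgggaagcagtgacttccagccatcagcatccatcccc
Gp9 (chr6:87777820-87778069, + strand): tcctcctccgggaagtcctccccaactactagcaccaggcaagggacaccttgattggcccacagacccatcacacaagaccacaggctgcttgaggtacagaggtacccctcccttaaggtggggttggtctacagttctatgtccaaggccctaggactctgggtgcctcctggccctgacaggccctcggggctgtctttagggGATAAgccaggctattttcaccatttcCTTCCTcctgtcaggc
Gp1bb (chr16:18622404-18622653, - strand): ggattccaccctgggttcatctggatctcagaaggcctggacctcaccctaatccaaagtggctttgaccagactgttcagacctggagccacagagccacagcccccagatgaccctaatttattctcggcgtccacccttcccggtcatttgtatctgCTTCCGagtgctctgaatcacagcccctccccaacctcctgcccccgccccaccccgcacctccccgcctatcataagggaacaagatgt
The ETS core lay 9 to 4 bases before the start of *Pf4*, 125 to 120 and 43 to 38 bases before that of *Itga2b*, 16 to 11 bases before that of *Gp9* and 90 to 85 bases before that of *Gp1bb*. A GATA core lay 43 to 39 bases before the start of *Gp9*. *Cd9*, a surface receptor read by the same rule and not printed, also held an ETS core. Among the surface receptor genes with an entry, 11 of 15 held the ETS core and 8 of 15 the GATA core. In all 32851 promoters the shares were 39.2% and 22.6%, and over 27025 genes 42.5% and 25.5%. The STAT motif TTCNNNGAA was present in 1 of the 15 and in 7.02% of all promoters. The short cores were searched after the longer forms (the ETS core with a T added at its end, the GATA core with an A or a T added at its start) had matched none of these 4 promoters but that of *Pf4*. The longer ETS form was present in 2 of the 15 receptor genes (13.3%, against 13.8% of all genes). The longer GATA form was present in 7 of the 15 (46.7%, against 18.8%). Over the other gene lists the share with the ETS core ranged from 17.6% (Erythroid) to 70.6% (myeloid). A match is a description of letters and not evidence of binding, and ETS cores are not independent of overlapping longer forms.

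The first comparison asked when and in what number the label appeared in each genotype. No cell carried it at E7.5 among 2532 null and 2506 WT cells, so shares up to 0.118% and 0.12% remain possible. At E8.5 it made up 0.983% and 0.340% of the cells of WT A and B (25 and 13 cells) and 1.04% and 0.175% of those of null A and B (40 and 2 cells). Both genotypes held these cells at E8.5, and the null libraries spanned the WT values. At E9.5 the share was 0.357, 0.606, 0.525 and 0.860% in WT A to D and 0.370, 0.249, 0.188 and 0.453% in null A to D. The null values were the lower on average (0.315% ± 0.119 against 0.587% ± 0.209, SD, n = 4 each), but null A and D lay within the WT range.

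**Figure D2:**
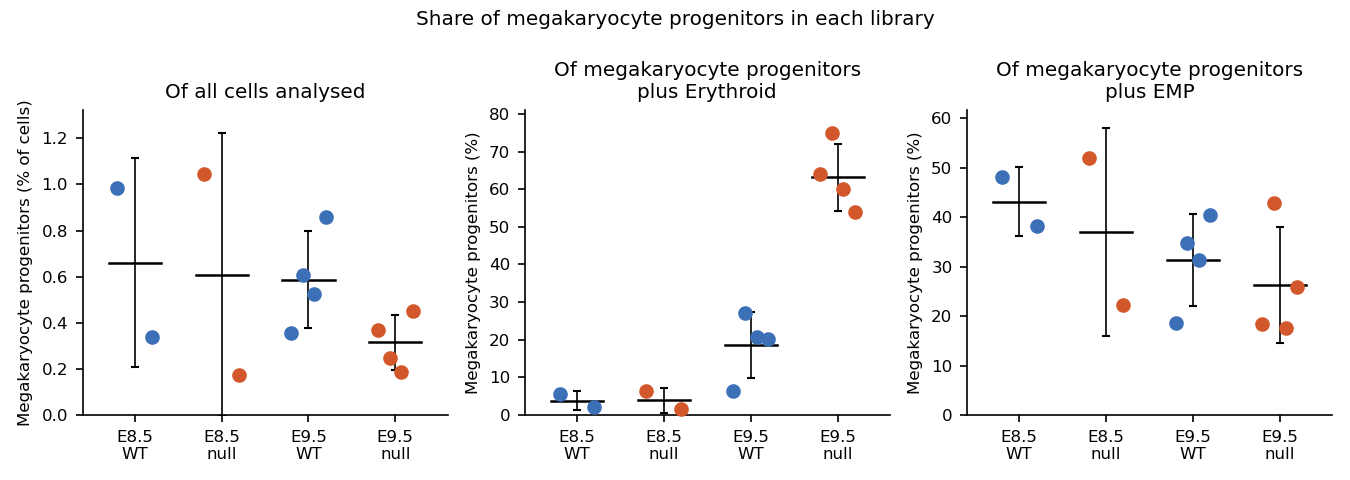
Megakaryocyte progenitors per library (%) at E8.5 and E9.5 of all cells (left), of these plus Erythroid cells (middle) and of these plus EMP (right), for WT (blue) and null (orange). Points are libraries and bars mean ± SD, cut off at 0; in the middle panel the 4 E9.5 null libraries lie between 53.8 and 75%, above the 4 WT libraries at 6.29 to 27.1%, and in the right panel the genotypes overlap.

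The share of all cells did not differ beyond the spread between libraries at either stage. At E8.5 the log2 fold change of null over WT was 0.01 (SE 0.77, edgeR quasi-likelihood test over 68 cell types, of which it called 0%, adjusted p = 1.00). At E9.5 it was -0.89 (SE 0.55, edgeR adjusted p = 0.976, unadjusted p = 0.107), and the shares compared by exact permutation (two-sided) gave p = 0.0857. Of 71 cell types tested at E9.5, 1 was called (1.41%), and this was Erythroid, at -4.03 on the log2 scale (SE 0.52, edgeR adjusted p = 2.59e-09). EMP stood at -0.33 on the log2 scale (SE 0.45, edgeR adjusted p = 0.976). The null effect moved by -0.98 from E8.5 to E9.5 for megakaryocyte progenitors (SE 0.92, edgeR adjusted p = 1.00), in a test that called 1 of 77 cell types (1.3%). It was 1.10 without E8.5 null A and -1.88 without E8.5 WT A, so its direction rests on single libraries.

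Set against the Erythroid cells of the same library, the megakaryocyte progenitors took a larger share in null than in WT libraries at E9.5. They were 6.29, 27.1, 20.8 and 20.1% of megakaryocyte progenitors plus Erythroid cells in E9.5 WT A to D. In null A to D they were 64, 75, 60 and 53.8%. The groups did not overlap, and the difference was 44.6 percentage points (63.2 ± 8.90 against 18.6 ± 8.78, SD, n = 4 each; exact two-sided permutation test p = 0.0286, the smallest that 70 arrangements can give). At E8.5 the means were 3.91% in null and 3.8% in WT (n = 2 each, exact permutation test p = 1.00, where 0.333 is the smallest possible). Whether the null effect differed between the stages was not tested for this share.

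The size and the sign of that difference depended on the denominator. Only 19 Erythroid cells stood beside 32 megakaryocyte progenitors in the null libraries at E9.5, against 380 beside 71 in WT. Out of megakaryocyte progenitors plus EMP the label took 26.2% ± 11.7 in null and 31.3% ± 9.25 in WT libraries (SD, n = 4 each), a difference of -5.08 points (exact permutation test p = 0.514). Out of 5 blood labels together (megakaryocyte progenitors, Erythroid, EMP, Blood progenitors and Chorioallantoic-derived erythroid progenitors, without MEP) it took 22.6% in null and 12.9% in WT, a difference of 9.67 points (exact permutation test p = 0.171). The fall of Erythroid cells in null libraries passed its test, and a fall of megakaryocyte progenitors was not shown.

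Depth and mitochondrial share of the megakaryocyte progenitors did not differ between genotypes beyond the spread. Over the 10 libraries with at least 5 of these cells, the median cell carried 30993 ± 8346 UMIs in WT (SD, n = 6) and 32061 ± 5100 in null libraries (n = 4; p = 0.914, exact permutation test with stages kept apart, two-sided). Genes per cell were 5199 ± 697 and 5295 ± 437 (exact permutation test p = 0.905), and the mitochondrial share 1.33% ± 0.256 and 1.33% ± 0.289 (exact permutation test p = 0.676). The atlas stage transferred to the cells had a library median of 9 in E8.5 WT B and 9.25 in the other 9 libraries, at both stages of collection. A median that hardly varied even between the stages cannot separate the genotypes. The mean over cells was 9.19 in WT and 9.18 in null libraries (exact permutation test p = 0.933). Of the 80 cells from E8.5 embryos 28 mapped to the latest atlas stage, E9.5, and of the 103 from E9.5 embryos 6 did.

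The comparison of null with WT megakaryocyte progenitors asked which transcripts differed inside the label. Genotype and donor origin are not separable in it. The targeted gene was examined first. *Stat3* (chromosome 11, 100885098 to 100939540, GRCm38) was measured through 3′ tags outside the replaced part, so its level checks the sort only in part, and *Stat5a* overlaps it on the opposite strand. It stood at 23.7 and 41.2 CPM in E8.5 WT A and B and at 7.01 and 0 CPM in null A and B. At E9.5 it stood at 38.1, 24.3, 43.0 and 32.3 CPM in WT A to D and at 8.58, 4.72, 0 and 9.83 CPM in null A to D. Every null library was below every WT library of its stage. The difference averaged over the stages was -28.8 CPM (p = 0.00476 by exact permutation with stages kept apart, two-sided, the lowest p open to 420 arrangements). These levels rest on 8 UMIs or fewer in each null library.

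Across all genes few differences passed the test. The main fit took libraries with more than 15 of the cells, which left E8.5 WT A and null A and E9.5 WT B, WT D and null A, with stage as a covariate. It called 13 of 6996 genes (0.186%), 5 of them higher (0.0715%) and 8 lower (0.114%) in null. A call needed an adjusted p under 0.05 in the edgeR quasi-likelihood test and at least a doubling or its inverse, a log2 fold change past 1 in size. With more than 5 cells per library, 10 libraries entered and 7 of 5917 genes were called (0.118%), 2 higher (0.0338%) and 5 lower (0.0845%), of which 5 were shared (38.5% of the first set and 71.4% of the second). The 13 genes kept their direction in the second fit, which held all libraries of the first and is no independent check. At E9.5 alone, over 7 libraries with more than 5 cells, 4 of 5209 genes were called (0.0768%), and all 4 were lower. At E8.5 alone no fit was made, since a single null library had enough cells. Without E9.5 null A, the only null library with over 15 cells at its stage, the counts were 7 of 7800 and 0 of 5341 (228 genes at an unadjusted p under 0.05), and without E9.5 WT D the first count was 24 of 6120.

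*Cd59a* encodes a membrane-anchored inhibitor of the complement attack complex (chromosome 2, 104095801 to 104115354). It stood at 249 and 227 CPM in E8.5 WT A and B, and at 43.8 and 13.4 CPM in null A and B. At E9.5 the WT libraries A to D held 143, 226, 258 and 201 CPM, and the null libraries 23.6, 47.2, 139 and 29.5 CPM. All 6 null libraries were lower than all 6 WT libraries, and the null library closest to WT was the one with 3 cells. The log2 fold change was -2.72 (SE 0.23, edgeR adjusted p = 8.05e-09), and *Cd59a* was called in each of 25 alternative fits over both stages. *Cd59b*, a close paralog, could share its reads.

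*Tnnt1*, the slow skeletal form of troponin T (chromosome 7, 4504570 to 4516382), was also lower. E9.5 WT A to D held 241, 217, 225 and 225 CPM, and null A to D 66.5, 75.5, 127 and 65.5 CPM. At E8.5 it stood at 117 and 57.7 CPM in WT and 40.3 and 53.5 CPM in null A and B. The genotypes were apart at E9.5, while at E8.5 WT B (14 UMIs) and null B (4 UMIs) were nearly level. The log2 fold change was -1.63 (SE 0.21, edgeR adjusted p = 3.02e-05). Its partner *Tnni1*, slow skeletal troponin I (chromosome 1, 135779434 to 135810989), moved the other way, by 1.39 on the log2 scale (SE 0.17, edgeR adjusted p = 1.39e-05). *Tnni1* stood at 149 and 128 CPM in E8.5 WT and 368 and 26.8 CPM in null A and B. At E9.5 it stood at 102, 122, 78.4 and 89.2 CPM in WT A to D and at 281, 137, 69.4 and 364 CPM in null A to D. The null libraries inside or below the WT range were those with the fewest cells, where *Tnni1* rested on 2 and 6 UMIs. Both troponin genes were called in all 25 alternative fits, none of which held these 2 libraries.

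*Grb10* encodes an adaptor that binds receptor tyrosine kinases and restrains growth, from an imprinted locus (chromosome 11, 11930508 to 12038683). It was at 54.8, 106, 96.1 and 72.5 CPM in E9.5 WT A to D, and at 2.14, 9.44, 11.6 and 9.83 CPM in null A to D. E8.5 WT A and B held 68.8 and 99.0 CPM and null A 1.75 CPM. E8.5 null B, in contrast, held 120 CPM from 9 UMIs, more than any WT library. The log2 fold change, fitted without that library, was -5.18 (SE 0.48, edgeR adjusted p = 5.90e-08), and 24 of 25 alternative fits called it, none of which held E8.5 null B. Whether the E8.5 null libraries came from the same ESC colony was not tested.

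*Lrmp*, an endoplasmic reticulum membrane protein of blood cells (chromosome 6, 145115653 to 145174934), was higher in null cells. It stood at 136, 86.2, 68.3 and 62.7 CPM in E9.5 WT A to D and at 184, 274, 567 and 187 CPM in null A to D. At E8.5 the WT libraries held 46.2 and 20.6 CPM and the null libraries 159 and 80.3 CPM. The genotypes did not overlap at either stage, the log2 fold change was 1.54 (SE 0.22, edgeR adjusted p = 0.000114), and 21 of 25 alternative fits called it. *Casc1* overlaps it on the opposite strand.

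**Figure D3:**
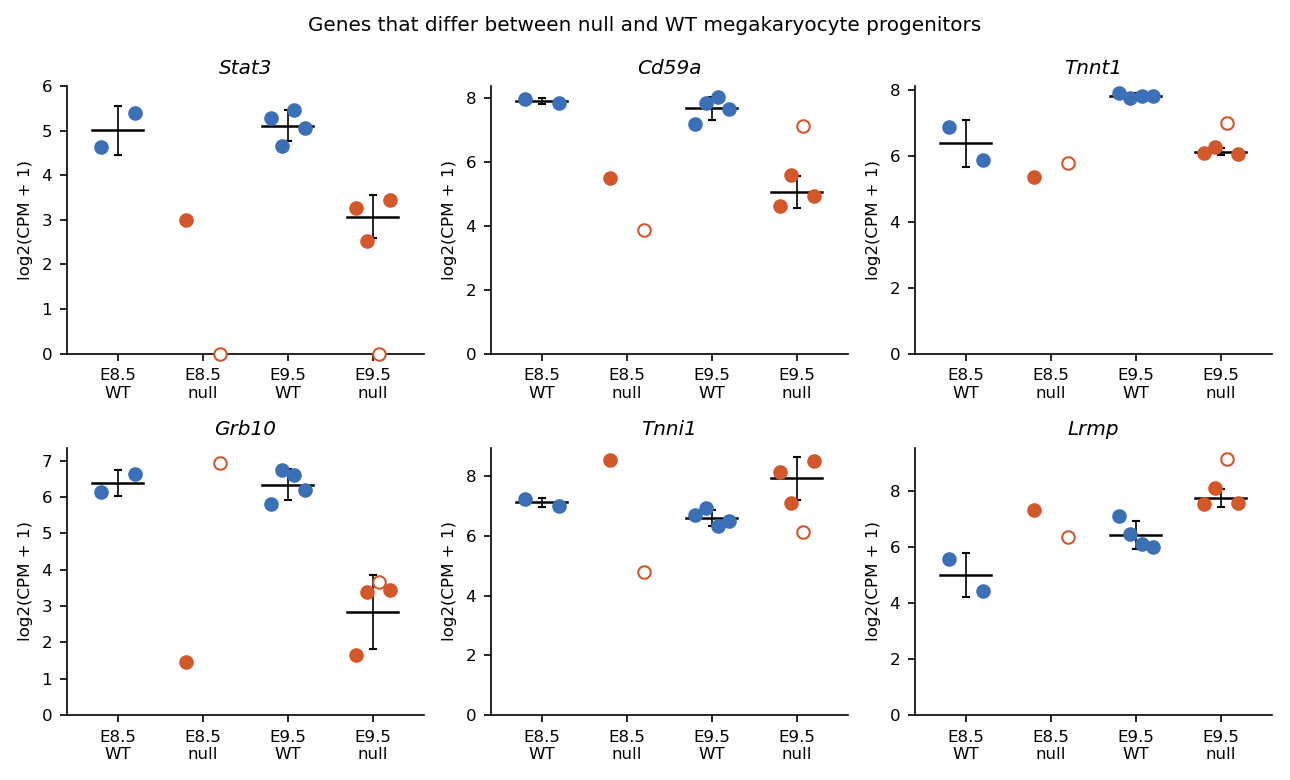
Level of *Stat3* and of 5 called genes in megakaryocyte progenitors of each library, as log2(CPM + 1), for WT and null at E8.5 and E9.5. Points are libraries, open symbols those with 5 cells or fewer, and bars mean ± SD of the others (WT blue, null orange); null points of *Cd59a* lie below all WT points, and the open E8.5 null point of *Grb10* lies with WT.

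The other called genes depended on the libraries taken. Among those higher, *Ccne2* (cyclin E2) had a log2 fold change of 1.51, *Crabp1* (a retinoic acid binding protein) 1.22 and *Mdm1* (a centriolar microtubule-binding protein) 1.02. They were called in 6 to 8 of 25 alternative fits. Among those lower, *Pou2f2* (the transcription factor OCT2) had a log2 fold change of -2.61, *Gp6* (the platelet collagen receptor) -1.88, *Hpgd* (which inactivates prostaglandins) -1.38 and *Csnk2a1* (the catalytic subunit of casein kinase 2) -1.30, with 5 to 9 of 25. *AL513022.1* was at 0 in every null library and at 0 to 43.0 CPM in WT libraries, and *AC132623.2*, called in the fit with more than 5 cells, had a log2 fold change of -1.96. *Tpm3-rs7*, called at E9.5 alone at -1.27 on the log2 scale (SE 0.21, edgeR adjusted p = 0.0398), was called in 7 of 15 alternative fits there and is a retrocopy whose reads may come from its parent gene.

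*Gp6* was the only listed surface receptor among these genes. It stood at 100, 113, 233 and 123 CPM in E9.5 WT A to D and at 32.2, 47.2, 266 and 72.1 CPM in null A to D. The null library with 3 cells had the highest value of all, and the other 3 null libraries lay below WT. Over 10 libraries the log2 fold change was -1.53 (SE 0.37, edgeR adjusted p = 0.265).

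Of the megakaryocyte lists 1 gene was called in the genotype comparison. Of 18 surface receptors 16 could be tested, and 1 (*Gp6*) was called lower (6.25%, against 0.114% of all genes). Of the 16, 15 had a log2 fold change below 0, and the median was -0.29, against a median within 0.01 of 0 over all genes tested. In the fit over 10 libraries no receptor was called, 8 of 16 were below 0 and the median was -0.01. None of 23 granule and secreted genes, 17 cytoskeletal genes or 23 transcription factors tested was called, with medians of -0.20, -0.20 and 0.10. Below 0 were 16 of the 23 granule genes, 16 of the 17 cytoskeletal genes and 7 of the 23 transcription factors. Over 10 libraries 12 of the 17 cytoskeletal genes were below 0, with a median of -0.06. *Gata1* had a log2 fold change of 0.11, *Fli1* of 0.09 and *Runx1* of -0.02. Of the cytokine receptors and JAK kinases 9 were tested and none was called, with a median log2 fold change of 0.10.

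In the STAT list no gene but *Stat3* was called. Of 26 STAT family and STAT target genes 13 were tested, and none was called in the main fit, where log2 fold changes ran from -1.73 (*Stat3* itself, SE 0.46, edgeR adjusted p = 0.153) to 1.66. The fit over 10 libraries called *Stat3* lower, at -2.03 (SE 0.36, edgeR adjusted p = 0.0129). A list for erythroid cells held 11 genes, some of them named in the text of the study, though not *Cd59a*. Of these 6 were tested and *Cd59a* was called lower (16.7%, against 0.114% of all genes), with 5 of 6 below 0 and a median of -0.59. That list was chosen on libraries of this series and is not independent evidence. Of 24 S phase genes tested 1 was called higher (*Ccne2*; 4.17%, against 0.0715% of all genes), 18 were above 0 and the median was 0.25. Over 10 libraries 20 of 24 were above 0 and none was called. Of 24 G2/M genes none was called and 12 were above 0. A test of whether the genotype difference changed between the stages called 0 of 6643 genes by edgeR (90 at an unadjusted p under 0.05). It rests on 1 E8.5 null library, taken to vary like the others, and does not show that the difference was alike at both stages.

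The comparison of E9.5 with E8.5 asked how the label changed over a day, with genotype as a covariate. It cannot be told apart from the difference between embryos or library preparations of the stages. Null and WT libraries of a stage came from the same embryos but were counted as separate libraries. The p-values of the stage test therefore do not measure the spread between embryos. The label score, the share of nearest atlas cells with the label, also differed. Its library medians were 0.64 to 0.92 at E8.5 and 0.82 to 1 at E9.5, and its part in the changes was not tested. The main fit over 5 libraries called 180 of 6996 genes (2.57%), 155 of them higher (2.22%) and 25 lower (0.357%) at E9.5. With more than 5 cells per library 257 of 5917 were called (4.34%), 223 higher (3.77%) and 34 lower (0.575%), of which 130 were shared (72.2% of the first set and 50.6% of the second). Of the 180 genes, 173 were tested there and 173 moved the same way, in a fit that held the same 5 libraries. The count was 36 without E8.5 WT A and 82 without E8.5 null A, the only E8.5 libraries of the main fit, and 252 with more than 5 cells and only cells with at least 2 markers. In WT libraries alone 81 of 5460 genes were called, and in null libraries alone, with a single E8.5 library taken to vary like the others, 154 of 5674.

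Many genes of the granule and secreted list rose at E9.5. That list also holds signalling and membrane genes, among them *Gng11*, *Rgs18*, *Sdpr* and *Lat*. Of 23 tested 11 were called higher (47.8%, against 2.22% of all genes), all 23 had a log2 fold change above 0, and the median was 1.18, against 0.01 over all genes tested. *Pf4*, read from 3069, 1233, 2611 and 93.7 CPM in E8.5 WT A, WT B, null A and null B, ranged from 15098 to 32413 CPM over the 8 E9.5 libraries, with a median of 19175. No library of one stage reached the range of the other, and the log2 fold change was 2.39 (SE 0.10, edgeR adjusted p = 1.62e-16). *Ppbp*, which encodes the precursor of the platelet chemokine CXCL7 and lies next to *Pf4* on chromosome 5, stood at 8.30, 4.12, 0 and 0 CPM at E8.5. At E9.5 it ranged from 183 to 3888 CPM with a median of 490, and the log2 fold change was 6.89 (SE 0.59, edgeR adjusted p = 0.00539).

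The other genes of this list ranged from no call to changes past that of *Pf4*. *Srgn*, the proteoglycan core of granules, changed by 3.10 on the log2 scale (SE 0.27, edgeR adjusted p = 1.15e-08), and *Alox12*, the platelet lipoxygenase, of 2.51 (SE 0.22, edgeR adjusted p = 9.63e-09). *Gng11* (a G protein subunit), *Rgs18* (a brake on G protein signals), *Sdpr* (a caveolar protein), *Serpine2* (a protease inhibitor), *F5* (clotting factor V), *Mmrn1* (its granule carrier multimerin) and *Lat* (a signalling adaptor) also rose, by 1.07 to 2.04 on the log2 scale. *Vwf*, the von Willebrand factor, had a log2 fold change of 0.76 (SE 0.42) and *Thbs1*, thrombospondin, of 0.09 (SE 0.13), and neither passed the test. The summed level of the list was 1285 to 7122 CPM at E8.5 and 21926 to 47358 CPM at E9.5.

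Several surface receptors rose. Of 16 tested 7 were called higher (43.8%, against 2.22% of all genes), all 16 had a log2 fold change above 0 and the median was 0.93. *Gp9* stood at 108, 66.0, 90.2 and 26.8 CPM in E8.5 WT A, WT B, null A and null B and at 335 to 2279 CPM, median 493, at E9.5. The stages did not overlap, and the log2 fold change was 1.83 (SE 0.16, edgeR adjusted p = 7.00e-09). Its partners in the von Willebrand factor receptor rose as well, *Gp1ba* by 2.02 (SE 0.27), *Gp1bb* by 1.36 (SE 0.14) and *Gp5* by 1.11 (SE 0.16), with edgeR adjusted p-values of 7.79e-06, 1.26e-07 and 1.91e-05. *Gp1bb* overlaps *Sept5* on the same strand, so its reads are uncertain.

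The remaining receptors called were *Gp6* at 2.47, *Clec1b* (the podoplanin receptor CLEC-2) at 1.14 and *P2rx1* (an ATP-gated channel) at 1.02. *Itga2b* stood at 281, 148, 180 and 147 CPM in E8.5 WT A, WT B, null A and null B and at 407 to 1770 CPM, median 568, at E9.5. The stages did not overlap, but the change of 0.94 on the log2 scale (SE 0.14, edgeR adjusted p = 5.67e-05) was under the minimum of 1. Over 10 libraries it was 1.55 (edgeR adjusted p = 0.0242), and *Itga2b* was among 9 receptors called there (3.77% of all genes were called higher).

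**Figure D4:**
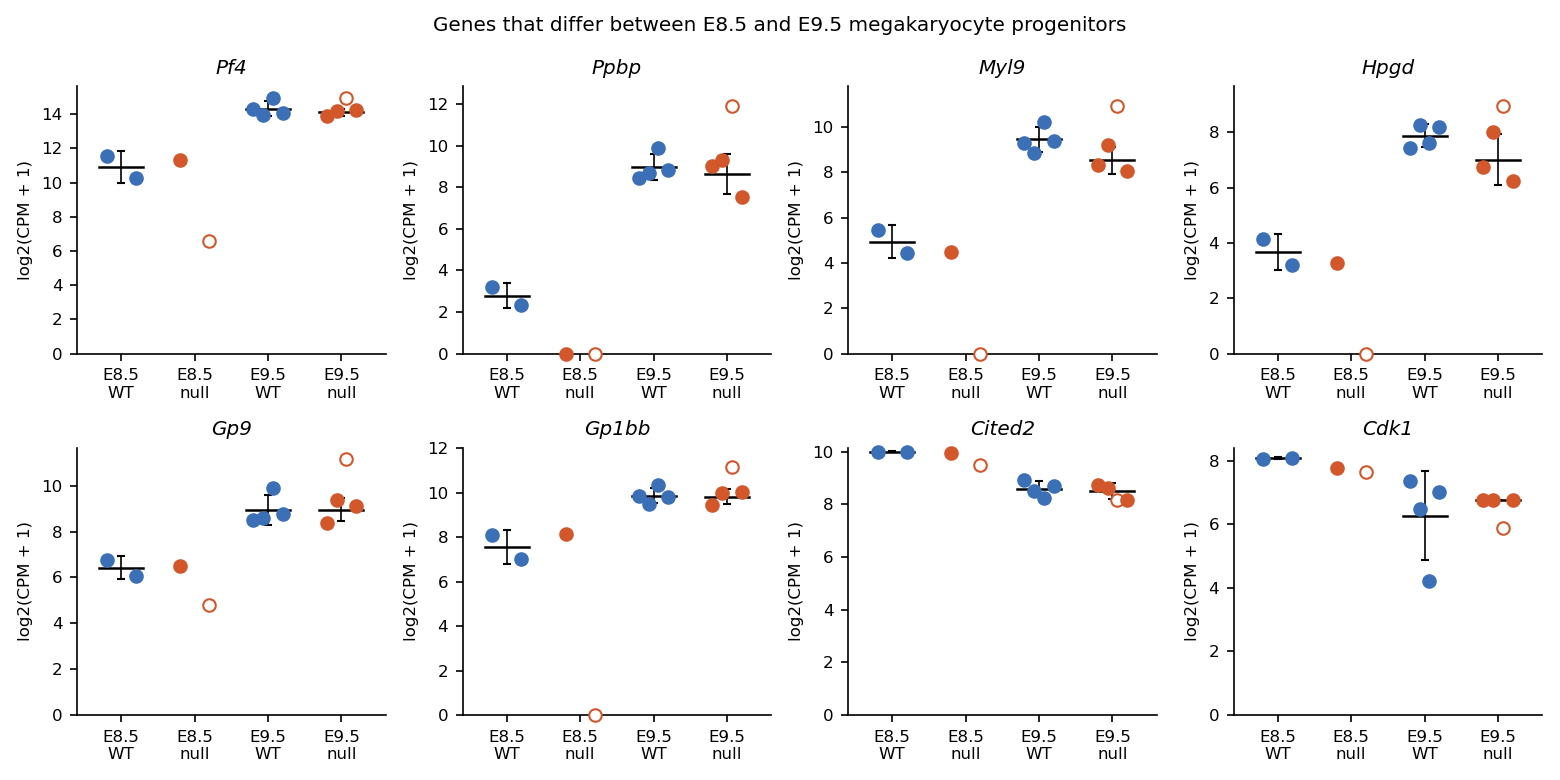
Level of 8 genes that differed between stages in megakaryocyte progenitors of each library, as log2(CPM + 1), at E8.5 and E9.5 for WT and null. Points are libraries, open symbols those with 5 cells or fewer, and bars mean ± SD of the others (WT blue, null orange); *Pf4*, *Ppbp* and *Myl9* are higher in every E9.5 than in every E8.5 library and *Cited2* is lower.

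Single cells of a stage varied widely. *Pf4* had a median of 8.25 UMIs per 10000 in the 38 E8.5 WT cells and of 163 in the 71 E9.5 WT cells. In null cells it rose from 12.7 (42 cells) to 96.7 (32 cells). The quartiles of the E9.5 WT cells were 29.8 and 285, the lower of them above the upper quartile of E8.5 WT cells (23.0). In null cells these overlapped, with a lower quartile of 23.6 at E9.5 and an upper quartile of 29.2 at E8.5. *Ppbp* had a median of 0 in all 4 groups, with an upper quartile of 2.93 in E9.5 WT and 4.63 in E9.5 null cells and a maximum of 70.4. *Gp9* was found in 57.5% of the E8.5 cells (95% exact binomial interval 45.9 to 68.5%) and 85.4% of the E9.5 cells (77.1 to 91.6%) after thinning.

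Cytoskeletal genes, which shape the proplatelet and its contraction, changed in part. Of 17 tested 3 were called higher (17.6%, against 2.22% of all genes), all 17 had a log2 fold change above 0 and the median was 0.46. *Myl9*, the regulatory light chain of non-muscle myosin, stood at 42.7, 20.6, 21.0 and 0 CPM in E8.5 WT A, WT B, null A and null B and at 269 to 1955 CPM, median 608, at E9.5. Its change of 3.72 on the log2 scale (SE 0.21, edgeR adjusted p = 4.48e-13) was called in all 27 alternative fits. *Parvb* (a partner of integrin-linked kinase) and *Bin2* (a membrane-bending protein) rose by 1.82 and 1.42. *Tubb1*, the megakaryocyte form of beta-tubulin, had a log2 fold change of 0.23 (SE 0.23) and did not pass. Over 10 libraries 6 were called higher, where 3.77% of all genes were.

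Calls among transcription factors of the lineage were near the share over all genes. Of 23 tested 1 was called higher (4.35%, against 2.22% of all genes), *Gata2* at 2.20 (SE 0.57, edgeR adjusted p = 0.0228), and the median was -0.01. *Gata2* stood at 0 to 16.5 CPM at E8.5 and 5.06 to 37.6 CPM at E9.5, which overlapped, and was not called with more than 5 cells per library. *Nfe2*, required for platelet release, stood at 0.84 on the log2 scale (SE 0.20, edgeR adjusted p = 0.00902) and *Gata1* of 0.63 (SE 0.19, edgeR adjusted p = 0.0554), both under the minimum of 1. *Fli1* stood at -0.37 (SE 0.15), *Runx1* at -0.15 (SE 0.16) and *Zfpm1*, the GATA1 cofactor FOG1, at 0.03 (SE 0.13). The summed level of the list was 2903 to 3708 CPM at E8.5 and 3051 to 3897 CPM at E9.5.

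**Figure D5:**
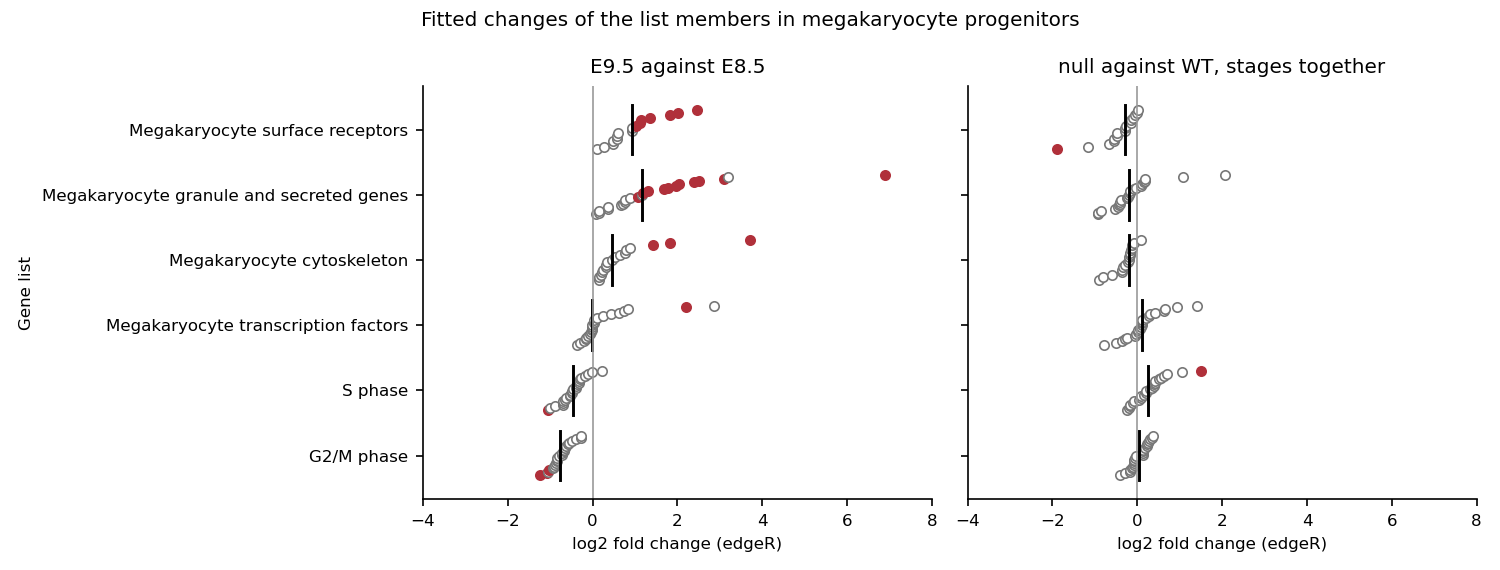
log2 fold change of each tested gene in 4 lists of megakaryocyte genes and 2 of cell cycle genes (rows), for the stage comparison (left) and the genotype comparison (right). Filled points passed the test and black lines are medians; granule and surface receptor genes lie to the right of 0 for E9.5 over E8.5 and the G2/M genes to the left, while for null over WT the medians lie between -0.29 and 0.25.

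A few cell cycle genes fell. All 24 G2/M genes tested had a log2 fold change below 0, with a median of -0.76, and 3 were called lower (12.5%, against 0.357% of all genes). *Cdk1*, the mitotic kinase, stood at 264, 272, 216 and 201 CPM in E8.5 WT A, WT B, null A and null B and at 17.7 to 164 CPM, median 108, at E9.5. The stages did not overlap and the log2 fold change was -1.24 (SE 0.18, edgeR adjusted p = 2.69e-05), called in 19 of 27 alternative fits but neither without E8.5 WT A nor in WT libraries alone. In WT Erythroid cells *Cdk1* stood at 103 to 151 CPM at E8.5 and 54.5 to 77.1 CPM at E9.5. In WT EMP it stood at 192 to 250 and 148 to 177 CPM. In null libraries of both labels the stages overlapped, and none of this was tested. *Cdc20*, an activator of the anaphase-promoting complex, changed by -1.06 (SE 0.20, edgeR adjusted p = 0.00143) and *Aurka*, a spindle kinase, by -1.03 (SE 0.25, edgeR adjusted p = 0.0123). Of 24 S phase genes 23 were below 0, the median was -0.47 and 1 (*Cdc6*, which loads the replicative helicase) was called lower (4.17%). The summed G2/M level was 3953 to 6492 CPM at E8.5 and 1342 to 3654 CPM at E9.5.

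Outside the lists, the called genes of largest change whose stages did not overlap among the 5 fitted libraries are given next. *Tnfsf14*, a cytokine of the tumour necrosis factor family, was at 0 in all 4 E8.5 libraries and at 7.15 to 49.1 CPM, median 33.4, at E9.5. *Hpgd* stood at 16.6, 8.25, 8.76 and 0 CPM in E8.5 WT A, WT B, null A and null B and at 75.4 to 498 CPM, median 228, at E9.5, a log2 change of 3.86 (SE 0.26, edgeR adjusted p = 1.73e-11). *Basp1* (a membrane-bound signalling protein) had a log2 fold change of 4.21, *Isg20* (an exonuclease) of 4.18 and *Ncf1* (a subunit of the phagocyte oxidase) of 4.15, although 1 E9.5 library held no *Ncf1* transcript. *Fgl2* (a fibrinogen-like protein), *Cd300a* (an inhibitory leukocyte receptor) and *Igdcc3* (an immunoglobulin superfamily protein) had 5.47, 4.25 and 3.50, all at under 50 CPM in each library. They did not hold in every alternative fit, with *Fgl2* and *Igdcc3* called in 5 of 10 and *Cd300a* in 13 of 24.

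Among the genes that fell, *Cited2* encodes a coregulator that binds the acetyltransferase CBP. It stood at 1028, 1014, 991 and 723 CPM in E8.5 WT A, WT B, null A and null B and at 285 to 491 CPM, median 381, at E9.5. The log2 fold change was -1.41 (SE 0.12, edgeR adjusted p = 5.73e-09), called in all 27 alternative fits. In Erythroid cells *Cited2* stood at 916 to 1149 CPM in WT and 706 to 758 CPM in null libraries at E8.5. At E9.5 it stood there at 156 to 383 and 142 to 470 CPM, with no test, and in EMP the stages overlapped. *Rnd2* (a small GTPase) and *Podxl* (the sialomucin podocalyxin) fell by 2.21 and 1.64 on the log2 scale, from low levels, and were called in 17 of 24 and 18 of 27 alternative fits. *Sapcd1*, *Flnc* (filamin C), *Tnnt2* (cardiac troponin T), *Gins1* (a replication factor) and *Alkbh7* had log2 fold changes of -2.20 to -1.23. Of 27 alternative fits *Flnc* was called in 6, *Tnnt2* in 9, *Sapcd1* in 12, *Alkbh7* in 16 and *Gins1* in 20, and *Flnc* and *Sapcd1* overlapped between the stages once all 12 libraries were counted.

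Markers of other cell types were counted in the same comparison, where 2.57% of all genes were called and 2.22% were called higher. None of 10 Erythroid genes tested was called (median -0.28), and 1 of 9 endothelial genes was (*Esam*, an adhesion molecule also found on megakaryocytes, at 1.46). Of 7 myeloid genes tested 3 were called higher, *Fcer1g*, *Laptm5* and *Coro1a*, and all 7 had a log2 fold change above 0, with a median of 2.49. The called 3 were already at 16.5 CPM or more in each E8.5 library. The other 19 myeloid markers, 6 of them at 0, summed to 25.4 to 93.7 CPM at E8.5 and 0 to 605 CPM at E9.5. Among the fitted libraries they summed to 34.4 and 25.4 CPM in E8.5 WT A and null A. In E9.5 null A, WT B and WT D the sums were 605, 261 and 59.8 CPM. Null A and WT B held most of the cells with a single marker, and 223 of 240 *Tyrobp* UMIs came from such cells. The part of these cells in the result was not tested. Of 12 progenitor genes 2 were called, *Gata2* and *Angpt1* (a ligand of TIE2, at 1.41). Of 13 STAT list genes 2 were called higher, the cyclins *Ccnd1* at 2.35 and *Ccnd2* at 1.53, and of 9 cytokine receptors and JAK kinases none was.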

How the data were processed

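Single-cell RNA was captured from sorted cells of chimeric embryos in droplets, and read from the 3′ end. The deposited counts are whole UMI counts per gene and cell, made by the authors with Cell Ranger on mm10 with an added Tomato-Td sequence. The deposited cell table holds, as the authors computed them, the mitochondrial percent, a doublet score, and the label score as a fraction of atlas neighbours that carried the label. The authors removed low-quality cells and marked doublets, and transferred labels by mutual nearest neighbours. All per-sample columns were used or mapped (0 left aside). Library names match no sample title, so groups come from the stage and tdTomato columns, and letters carry no pairing.

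UMIs of labelled cells were summed per library. Libraries with more than 15 cells were used, as in the study, or more than 5 where fewer than 2 libraries of a genotype had more. Of 29453 genes, 8175 were dropped (predicted, mitochondrial, ribosomal, haemoglobin, Y-linked, *Xist*, *Tsix* and Tomato-Td). edgeR 4.0.16 in R 4.3.3 (filterByExpr, TMM, quasi-likelihood test, Benjamini-Hochberg) was the main test, with genotype and stage as terms. The study's block for embryo pool could not be fitted. Abundance took cell types with at least 20 cells. DESeq2 1.42.0 and limma 3.58.1 were alternatives, and scripts were tested on simulated data. Detection shares were thinned to 10000 UMIs per cell. Depth per library is given with the results, and intervals cover counting error. Promoters came from RefSeq and gene coordinates from GENCODE M21 (GRCm38). Python 3.11.15 with scipy 1.17.1 ran exact permutation tests.

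Genes named were the markers, listed genes that passed or had the highest mean CPM, *Stat3*, and up to 10 called genes per direction with the largest change and no overlap between groups. Members and lists were chosen with earlier results of these data known. A few genes that this rule names are not reported here.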

Additional observations from a re-analysis of the deposited data

Results flagged for a closer look

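Of 78 sets of 4 E9.5 libraries of 1 genotype, 10 had a library far from the other 3, where chance alone gives about 1 in 20 independent sets. These sets share libraries, and the summed surface receptors hold *Itga2b*, *Gp9* and *Gp6*, so the 10 cannot be set against that rate. WT C, with 10 cells, was the highest WT library in 5 of them. Its summed level of surface receptors was 9740 CPM (5081 to 5272 CPM in the others), with *Itga2b* at 1047 CPM (476 to 556 CPM), *Gp9* at 963 CPM (362 to 436 CPM), *Gp6* at 233 CPM (100 to 123 CPM) and *Pou2f2* at 109 CPM (31.0 to 35.4 CPM). WT B stood apart in myeloid markers without *Fcer1g*, *Coro1a* and *Laptm5*, at 261 CPM against 37.9 to 59.8 CPM. Null C, with 3 cells, was the highest null library in the other 4. It held 2279 CPM of *Gp9* (335 to 661 CPM in the others), 266 CPM of *Gp6* (32.2 to 72.1 CPM), 127 CPM of *Tnnt1* (65.5 to 75.5 CPM) and 822 CPM of summed endothelial markers (309 to 344 CPM).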

How the results depend on the processing

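The abundance change at E8.5 turned with the test and the library (DESeq2 -0.023, from -1.94 to 1.00 when each library was left out), and its change with stage turned with the library (-1.88 to 1.10). The share among megakaryocyte plus Erythroid cells kept a difference of 40.5 to 47.7 points without any 1 library, but was 9.67 points over 5 blood labels without MEP and -5.08 over megakaryocyte progenitors plus EMP, denominators that hold other cells. Genes called at E9.5 numbered 10 by DESeq2, 2 by limma-voom, 37 without a filter on low counts, 16 with more than 15 cells (a single null library, taken to vary like the 2 WT libraries) and 7 with all genes, and 0 (without null A) to 9 (without WT C). Over both stages they numbered 7 by DESeq2, 59 without the filter, 7 with more than 5 cells, 7 when those also needed 2 markers, and 7 (without E9.5 null A) to 24 (without E9.5 WT D). With more than 5 cells, single libraries left out gave 5, 6, 7, 8, 9 or 12. Between stages they numbered 71 by DESeq2, 290 without the filter, 360 without the fold threshold and 81 in WT libraries only, and 36 (without E8.5 WT A) to 266 (without E9.5 WT D). With more than 5 cells, DESeq2 called 286, and left-out libraries gave 92 (E8.5 null A), 111 (E8.5 WT A or WT B), 288 (E9.5 WT A) and up to 314 (E9.5 null A). The cause was not tested. Over 37 called genes and 877 alternatives, 563 were called again, 305 were not, and 0 changed sign. In the rest the test gave no adjusted p. Fits with more than 30 cells, and with 2 markers and more than 15 cells, could not be made. Fits over more than 5 cells, by genotype or over all 16 libraries, the EMP denominator and the 2-marker cells over both stages were chosen after seeing the data. No paired analysis was possible because library names carry no pool or replicate number. Depth limits the null libraries with 2 and 3 cells most.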

Other observations

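Genes called in megakaryocyte progenitors had these levels in the neighbouring blood labels, taken over libraries with more than 5 cells and given with no test. *Cd59a* stood at 69.6 to 120 CPM in E8.5 WT and 13.9 to 40.4 CPM in E8.5 null EMP, and the genotypes overlapped in E9.5 EMP (13 to 28.1 CPM in WT and 1.29 to 20.9 CPM in null). In Erythroid cells it stood at 122 to 154 CPM in E8.5 WT and 7.16 to 13.7 CPM in E8.5 null libraries, but at 85.9 to 112 CPM in E9.5 WT and 92.3 to 95 CPM in E9.5 null libraries. The E9.5 null values rest on 9 and 6 Erythroid cells. *Tnnt1*, lower in null megakaryocyte progenitors, stood in EMP at 42.6 to 56.1 CPM in WT and 21.3 to 34.6 CPM in null libraries at E8.5, and at 42.2 to 47.3 CPM and 0 to 32.3 CPM at E9.5. In Erythroid cells it was near the floor, at 1.74 to 4.59 CPM in WT and 5.08 to 6.16 CPM in null libraries at E8.5. At E9.5 it stood there at 0 to 3.49 CPM in WT and 6.15 to 16.8 CPM in null libraries. These E9.5 null values rest on few UMIs of the same 9 and 6 cells. *Tnni1* at E8.5 stood at 9.60 to 26.0 CPM in WT and 32.2 to 34.2 CPM in null Erythroid libraries. Its genotypes overlapped in E9.5 Erythroid cells (0.908 to 3.82 CPM in WT and 0 to 5.59 CPM in null). They also overlapped in EMP at both stages. *Lrmp* stood at 0 to 0.537 CPM in WT and 2.58 to 16.8 CPM in null Erythroid libraries, again with few UMIs in the E9.5 null ones. In EMP it stood at 45.9 to 61.3 CPM in WT and 63.5 to 83.4 CPM in null libraries at E8.5. The genotypes overlapped in E9.5 EMP (60.5 to 76.5 and 71.6 to 95.5 CPM). *Tpm3-rs7* at E9.5 stood at 217 to 266 CPM in WT and 128 to 132 CPM in null EMP. In Erythroid cells at E9.5 it stood at 38.4 to 43.5 and 12.3 to 22.4 CPM.

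*Grb10* at E9.5 stood at 22.1 to 68.8 CPM in WT and 0 to 3.87 CPM in null EMP. In Erythroid cells at E9.5 it stood at 139 to 150 CPM in WT and 0 to 11.2 CPM in null libraries. *Grb10* in E8.5 null B, which was at a WT level in its 2 megakaryocyte progenitors, was also at 86.5 CPM in EMP and 113 CPM in Erythroid cells of that library. In E8.5 null A the Erythroid level was 1.63 CPM, and in WT Erythroid libraries it was 139 to 152 CPM. *AC132623.2* was at 28.8 CPM in EMP and 42.3 CPM in Erythroid cells of null B, and at 0 and 3.21 CPM in null A. E8.5 WT libraries held 18.7 to 22.9 CPM in EMP and 22.9 to 29.2 CPM in Erythroid cells. In megakaryocyte progenitors null B held 13.4 CPM from 1 UMI and null A 15.8 CPM, against 56.9 and 53.6 CPM in WT. At E9.5 Erythroid cells held 0 to 36.9 CPM in null and 5.35 to 21.5 CPM in WT libraries. The labels do not say whether null A and null B came from the same ESC colony, and the part of the colony in these values was not tested.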
